A study of Mus musculus with 12 samples.

Results

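The genes Tet1, Tet2, Tet3, Tdg, Dnmt1, Dnmt3a, Dnmt3b, Dnmt3l and Uhrf1 write, copy or remove DNA methylation, and their own loci were examined here in mouse colonic adenomas. The sites were all autosomal CCCGGG sequences inside 9 windows of the mm9 genome build, 1 window per gene, and numbered 104 of 164896 autosomal sites listed. Of these, 34 had at least 20 reads in each of 11 adenomas (called deep sites below), as had 24503 sites over all autosomes. The Dnmt3a window held 15 deep sites of 26, Tet3 5 of 20, Uhrf1 5 of 11, Dnmt3b 4 of 8, Dnmt1 3 of 7 and Tet1 2 of 11. No site was deep among the 2 of the Tdg window, the 8 of Tet2 and the 11 of Dnmt3l. A further 63 sites had some reads, and 7 had no read in any of the 11 adenomas.

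All mice were C57BL/6J and carried the Min allele of Apc on 1 chromosome, which predisposes to intestinal adenomas, and were killed at 150 to 160 days. Each of 4 genotypes gave 3 adenomas: Tet1+/+ Tdg+/+ ApcMin/+ (control), Tet1-/- Tdg+/+ ApcMin/+ (Tet1-/- below), Tet1+/+ TdgN151A/+ ApcMin/+ (TdgN151A/+ below), and Tet1+/- TdgN151A/+ ApcMin/+ (double mutant below, with 1 altered allele of each gene). Methylation was read by digital restriction enzyme analysis of methylation (DREAM), in which SmaI cuts unmethylated CCCGGG sites, XmaI cuts the methylated ones left, and the ends of the reads tell the 2 apart. Double mutant adenoma 3 had 2349576 reads, against 8213211 to 18865833 in the other 11 adenomas, and was left out of the choice of sites, the tests and the group values unless named. Nothing in the labels ties an adenoma to a mouse, so several could share one, and p-values reflect only how these adenomas vary. Whether all adenomas carried the labelled Tet1 genotype could not be read from a lost CCCGGG site, as shown at the end. Every level below is the deposited level after adjustment for enzyme efficiency, in percent, unless reads are given.

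Dnmt3a and Dnmt3b place methyl groups on unmethylated cytosines, Dnmt3l is a cofactor without enzymatic activity that binds them, and Dnmt1 copies the pattern after replication with the help of Uhrf1, which recognises hemimethylated DNA. Tet1, Tet2 and Tet3 oxidise 5-methylcytosine, and Tdg excises the more oxidised forms so that base excision repair can restore an unmodified cytosine. The N151A change of Tdg lies in its catalytic site and abolishes glycosylase activity.

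No mm9 gene annotation was used. Sites were tied to genes by finding CCCGGG in the RefSeq promoters (300 bases, 250 before to 50 after a start, GRCm38.p6) and matching the spacing of these letters to the spacing of the deposited mm9 sites. CCCGGG occurred in 8 of the 16 promoters of the 9 genes (6 of 9 genes), against 13.5% of 32851 promoters in the table. Spacing matched at a single place on the chromosome for Tet1 (4 of 4 CCCGGG, those of neighbouring genes included), Tet2 (4 of 4), Dnmt3a (5 of 5) and Dnmt3b (5 of 5). For Tet3 (2 of 2) and Uhrf1 (2 of 2) the same spacing occurred at 3 and 5 places of the chromosome, 1 of which lay in the window, so these 2 matches are weaker. The promoters of Tdg and Dnmt3l hold no CCCGGG, so spacing placed no start in their windows. The 3 Dnmt1 promoters hold none either. Tdg and Dnmt3l lie on the chromosome of Tet1. If the shift between builds at the Tet1 match held along it, the Dnmt3l starts would fall inside their window. The Tdg start would then fall past the upper end of its window. Whether the shift holds there was not checked. The sequences that the results turn on follow, 5′ to 3′ in the direction of the gene, with CCCGGG in capitals. The promoters are shown up to the base before the start, since they carry the sites that were read or could not be read.
Tet3, chr6:83441679-83441928 (GRCm38.p6, minus strand): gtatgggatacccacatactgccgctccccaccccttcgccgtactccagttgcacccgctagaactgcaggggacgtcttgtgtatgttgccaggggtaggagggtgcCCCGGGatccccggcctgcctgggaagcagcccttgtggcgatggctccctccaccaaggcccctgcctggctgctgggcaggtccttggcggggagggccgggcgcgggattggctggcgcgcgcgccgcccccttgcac
Tet2, chr3:133544391-133544640 (GRCm38.p6, minus strand): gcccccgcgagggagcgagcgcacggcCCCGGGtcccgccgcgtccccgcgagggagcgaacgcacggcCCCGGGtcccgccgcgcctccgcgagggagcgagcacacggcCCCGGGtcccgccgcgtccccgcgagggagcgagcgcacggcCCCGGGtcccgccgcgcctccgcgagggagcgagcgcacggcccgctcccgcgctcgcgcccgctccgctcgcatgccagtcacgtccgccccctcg
Dnmt3a, long transcript, chr12:3806730-3806979 (GRCm38.p6, plus strand): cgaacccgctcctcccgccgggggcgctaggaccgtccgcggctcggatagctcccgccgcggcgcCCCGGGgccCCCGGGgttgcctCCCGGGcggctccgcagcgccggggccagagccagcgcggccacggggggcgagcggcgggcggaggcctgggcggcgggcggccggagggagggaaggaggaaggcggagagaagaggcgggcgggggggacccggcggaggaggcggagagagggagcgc
Dnmt3a, internal start, chr12:3891494-3891743 (GRCm38.p6, plus strand): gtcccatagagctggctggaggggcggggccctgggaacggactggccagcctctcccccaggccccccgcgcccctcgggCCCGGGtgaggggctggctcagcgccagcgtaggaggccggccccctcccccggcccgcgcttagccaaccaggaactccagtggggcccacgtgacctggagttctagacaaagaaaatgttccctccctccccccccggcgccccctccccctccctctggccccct
Tet1, 30 bases just after the start, chr10:62887283-62887312 (GRCm38.p6, minus strand): ggtttgtacaatCCCGGGgtctgtattcgc

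The deep sites of these loci were mostly unmethylated in every genotype. The mean level over 11 adenomas was below 1% at 28 of 34 sites (82.4%), against 47.7% of all 24503 deep autosomal sites. It was 5 to 20% at 4 sites and 20 to 80% at 2 sites, and above 80% at none, against 19.0% of all. The median site stood at 0.0427% here and at 1.67% over all deep sites. These sites were also deeper, with a median of 906 reads per adenoma against 479. Of the standards added to the DNA, the one that read lowest in each of the 12 libraries was taken as unmethylated. It read 0.12 to 1.66% methylated, and below 1% in 8 libraries.

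**Figure D1:**
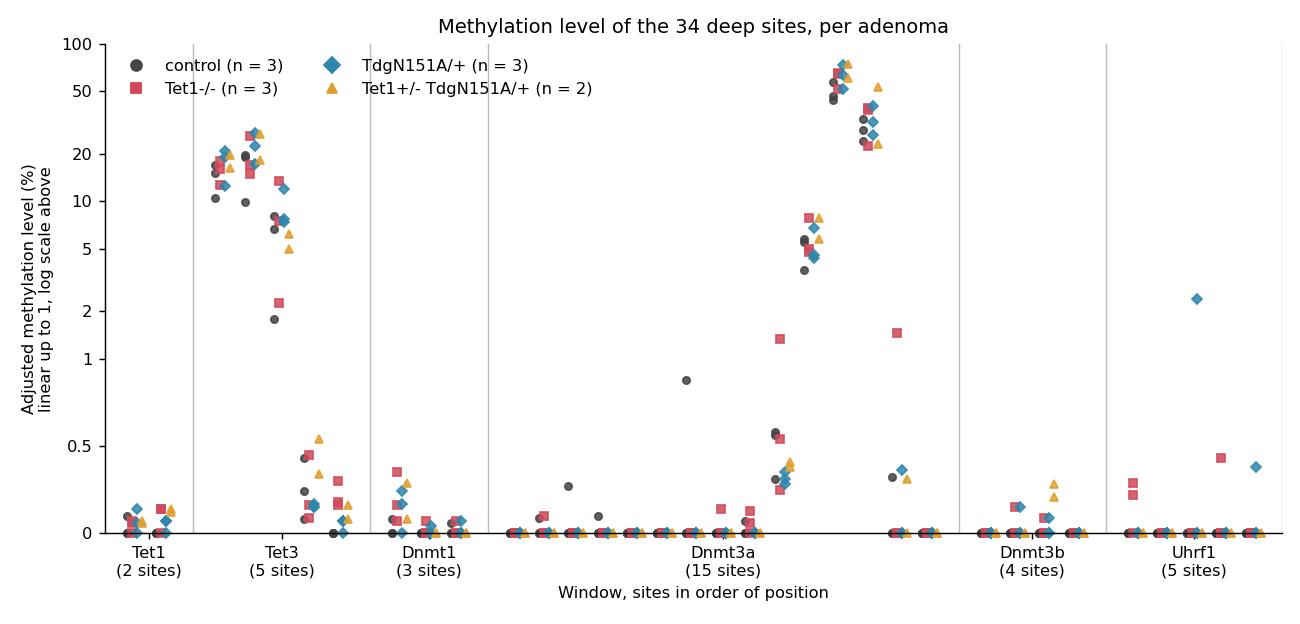
Adjusted methylation level (%, linear up to 1 and logarithmic above) of the 34 deep sites in each of 11 adenomas, by window and in order of position, with genotype by symbol and colour. The 3 raised Tet3 sites and the 3 raised Dnmt3a sites stand above 1% in every adenoma, and the other sites lie at or near 0 in nearly all.

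In the Tet3 and Dnmt3a windows, deep sites farther into the gene had higher levels than those around a start. In the windows of Tet1, Tet3, Dnmt3a, Dnmt3b and Uhrf1, 22 deep sites lay between 697 bp before and 809 bp after a matched start, and their mean levels were 0 to 0.255%. A further 5 sites, of Tet3 and Dnmt3a, lay 976 to 1823 bp past a start, with mean levels of 0.482 to 19.9%. A pair of Dnmt3a sites lay 12634 and 12832 bp past the start and had mean levels of 59.5 and 32.8%. A pair of sites in the Uhrf1 window lay 21735 and 21895 bp past the Uhrf1 start, beyond the end of the gene. Their mean levels were 0.039 and 0.035%, so distance from the matched start alone did not go with a high level. Starts of other genes whose promoters hold no CCCGGG were not placed. Whether this pair lies near such a start was not checked. The other 3 deep sites, of the Dnmt1 window, had no matched start of these genes. These classes were drawn after the levels were seen and are a description.

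Among the enzymes that remove methylation, Tet1 had 2 deep sites, both inside the gene and close to its start. At chromosome 10 position 62349949, 121 bp past the start, the level was 0, 0 and 0% in control, 0.14, 0 and 0.14% in Tet1-/-, 0.07, 0 and 0.07% in TdgN151A/+ and 0.12 and 0.14% in double mutant adenomas. At position 62349597, 473 bp past the start, it was 0, 0 and 0.1% in control, 0.07, 0.06 and 0% in Tet1-/-, 0, 0.06 and 0.14% in TdgN151A/+ and 0.06 and 0.07% in double mutant adenomas. Each site was thus below 0.2% in every adenoma. Summed over both, 17 of 30171 reads were methylated (0.056%, 95% Clopper-Pearson interval 0.033 to 0.09). The CCCGGG printed above lay 24 bp past the start, at position 62350046, which is 46 bp beyond the window and so no member. It had 10 to 21 reads per adenoma and 0 methylated of 194 reads in all, which allows a level of up to 1.55%. For sites with 0 methylated reads, here and below, this limit is 3 reads of the total, which lies below the upper Clopper-Pearson bound (1.88% here). Further into Tet1, 9 sites had a mean of 1.73 to 6.18 reads per adenoma, and 275 of their 383 reads were methylated (71.8%, 67.0 to 76.3). That share was 69.8% (59.6 to 78.7) in control, 74.5% (64.4 to 82.9) in Tet1-/-, 75.2% (66.2 to 82.9) in TdgN151A/+ and 66.3% (54.8 to 76.4) in double mutant adenomas, with intervals that overlap. All such intervals cover counting error only, and the labels name no molecular identifiers. The 9 sites differed: position 62306566 had 9 methylated of 49 reads and position 62274951 had 14 of 42, against 67 of 68 at position 62340887. At the first 2 of these, control adenomas had 0 methylated of 6 and of 9 reads. The counts there were 3 of 14 and 2 of 5 in Tet1-/-, 4 of 16 and 8 of 17 in TdgN151A/+, and 2 of 13 and 4 of 11 in double mutant adenomas. These sites were picked with their values in view, and the difference was not tested.

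The 4 CCCGGG before the start of Tet2, the repeated units visible in its printed sequence, lay 42 bp apart at positions 133207449 to 133207575 of chromosome 3. Of these, 3 had no read in any of the 11 adenomas and the fourth had 3 reads, so the methylation of this promoter was not measurable. The closest site with reads, position 133207693, had 17 to 48 reads per adenoma and 0 methylated of 397 (up to 0.756%). The 3 sites farther away, at positions 133196750, 133169299 and 133116834, were methylated in 101 of 120, 61 of 68 and 27 of 36 reads.

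Tet3, the third dioxygenase, was unmethylated at its start and partly methylated farther into the gene. The CCCGGG in its printed promoter, position 83391811 of chromosome 6 and 141 bp before the start, had levels of 0, 0 and 0% in control, 0.18, 0.16 and 0.3% in Tet1-/-, 0.07, 0.07 and 0% in TdgN151A/+ and 0.16 and 0.08% in double mutant adenomas. At position 83391487, 183 bp past the start, levels were 0.08 to 0.54% over the 11 adenomas. At position 83390694, 976 bp past it, they were 1.78, 6.71 and 8.02% in control, 7.5, 2.25 and 13.5% in Tet1-/-, 12, 7.4 and 7.66% in TdgN151A/+ and 6.19 and 4.99% in double mutant adenomas. The groups overlap at this site, and adenomas of 1 genotype differ as much as the genotypes do.

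Among the 5 deep Tet3 sites, the highest mean level was 1414 bp past the start, at position 83390256. It was 9.92, 19.1 and 19.7% in control, 14.9, 16.9 and 26.1% in Tet1-/-, 22.4, 17.2 and 27.3% in TdgN151A/+ and 26.8 and 18.2% in double mutant adenomas. Control adenoma 1 was the lowest of the 11 here and at 4 of the 6 sites with a mean level of 1% or more. At position 83389847, 1823 bp past the start, levels were 10.4, 15.1 and 16.9% in control, 12.8, 16.0 and 18.1% in Tet1-/-, 20.8, 12.5 and 19.1% in TdgN151A/+ and 19.7 and 16.4% in double mutant adenomas. Double mutant adenoma 3, not used above, had 22.8% of 220 reads at the first and 19.2% of 151 reads at the second of these sites, within the range of the others.

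Another unmethylated stretch lay 13.7 to 15 kb before the matched Tet3 start. Its 6 sites between positions 83405361 and 83406709 had mean depths of 0.09 to 5.27 reads per adenoma, and 0 of 149 reads were methylated, which allows a level of up to 2.01%. This stretch was picked with its values in view. The remaining shallow Tet3 sites included position 83317964, methylated in 321 of 325 reads, and position 83410669, methylated in 281 of 308. Others were lower, with 20 of 50 reads at position 83396637 and 5 of 48 at position 83393610, both before the start. Inside the gene, position 83371978 had 22 of 114 and position 83368746 had 1 of 20, at 19692 and 22924 bp past the start. Over all 15 shallow Tet3 sites, 65.9% of 1274 reads were methylated.

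In the window of Tdg, the glycosylase, methylation was measurable at 1 site alone. No start was placed in this window, and whether the site lies in Tdg was not determined. Position 82065330 of chromosome 10 had 2 to 8 reads per adenoma, and 60 of its 65 reads were methylated (92.3%, 83.0 to 97.5). The methylated reads were 18 of 19 in control, 15 of 15 in Tet1-/-, 15 of 19 in TdgN151A/+ and 12 of 12 in double mutant adenomas. The 95% Clopper-Pearson intervals, 74.0 to 99.9%, 78.2 to 100%, 54.4 to 93.9% and 73.5 to 100%, overlap. Position 82052759 had no reads, and the Tdg promoter was not covered.

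**Figure D2:**
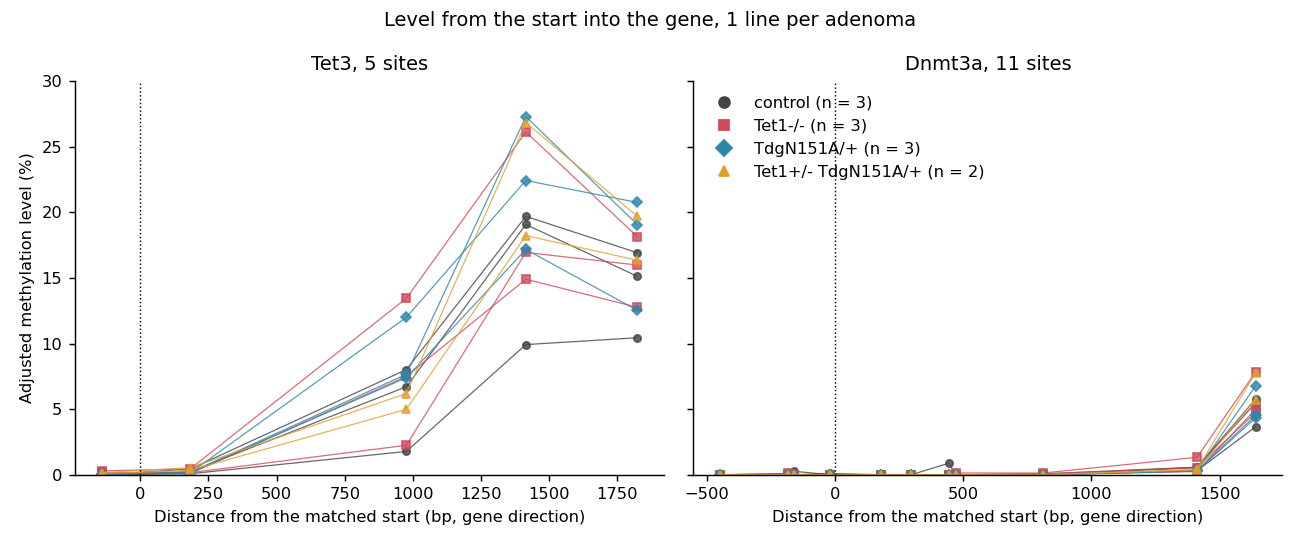
Adjusted methylation level (%) against the distance in bp from the matched start, in the direction of the gene, at 5 deep Tet3 sites and 11 deep Dnmt3a sites (each Dnmt3a site from the nearer of 2 starts), with 1 line per adenoma and genotype by colour and symbol. Levels lie near 0 around both starts, reach 9.92 to 27.3% at 1414 bp in Tet3, and 3.66 to 7.84% at 1641 bp in Dnmt3a.

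Dnmt3a, a de novo methyltransferase, had the most deep sites. The 3 CCCGGG of its long printed promoter lay at positions 3806799, 3806808 and 3806821 of chromosome 12. The first and the third had levels of 0 to 0.1% and 0 to 0.27% over the 11 adenomas, while the middle site, 9 bp from its neighbour, had 9 reads in all and none methylated. Position 3806534, 449 bp before that start, had 0 methylated of 10046 reads (up to 0.03%). A further site at position 3807144, 19 bp before another start, was at 0 to 0.1%. From there to 809 bp past that start, 5 sites at positions 3807343 to 3807972 had mean levels of 0 to 0.08%. At position 3808575, 1412 bp past it, the level was 0.25 to 1.33%.

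The next Dnmt3a site, 1641 bp past the start at position 3808804, stood at 3.66, 5.48 and 5.78% in control, 5.0, 4.76 and 7.84% in Tet1-/-, 4.54, 4.35 and 6.78% in TdgN151A/+ and 7.77 and 5.72% in double mutant adenomas. At position 3819797, which had the highest mean level and the largest range of level among the deep sites of the window, values were 57.3, 46.6 and 44.2% in control, 51.6, 64.6 and 65.7% in Tet1-/-, 63.9, 73.1 and 51.8% in TdgN151A/+ and 74.9 and 61.0% in double mutant adenomas. The means were 49.4% ± 6.95 in control (SD, n = 3), 60.6% ± 7.82 in Tet1-/-, 62.9% ± 10.7 in TdgN151A/+ and 67.9% ± 9.89 in double mutant adenomas (n = 2). Both double mutant values lay above the controls, and the Tet1-/- and TdgN151A/+ values overlapped them. The neighbour 198 bp away, position 3819995, was lower in every adenoma, with 24.3, 33.3 and 28.4% in control, 22.5, 37.9 and 39.4% in Tet1-/-, 32.0, 26.5 and 40.4% in TdgN151A/+ and 53.1 and 23.0% in double mutant adenomas. Double mutant adenoma 1 was the highest at both sites.

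Around the internal start of Dnmt3a, from which a shorter form is transcribed, the level was low again. The CCCGGG of the second printed Dnmt3a promoter, position 3891578 and 169 bp before that start, had 0 methylated of 2628 reads in the 11 adenomas (up to 0.114%). Position 3891050, 697 bp before it, was at 0 to 1.45%, the highest value being that of Tet1-/- adenoma 2. Of the 11 shallow sites in the window, 8 had a summed level over 50%, such as position 3902596 with 103 of 103 reads and position 3835216 with 64 of 87.

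The second de novo enzyme, Dnmt3b, was unmethylated at its 4 deep sites, from 35 bp before to 777 bp past the start. Positions 153475153 and 153475965 of chromosome 2 had 0 methylated of 1299 and of 5140 reads (up to 0.231 and 0.058%). At position 153475769 the level was 0, 0 and 0% in control, 0, 0.09 and 0% in Tet1-/-, 0, 0.09 and 0% in TdgN151A/+ and 0.28 and 0.21% in double mutant adenomas. Together the 4 sites had 9 methylated of 23175 reads. Inside the gene, position 153511190 was methylated in 25 of 32 reads.

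Dnmt3l, the cofactor, had no deep site, and its 11 shallow sites were methylated in 986 of 1234 reads (79.9%, 77.6 to 82.1). The share was 79.9, 80.7, 79.8 and 79.2% in control, Tet1-/-, TdgN151A/+ and double mutant adenomas. The genotypes therefore lay within 2 points of each other, inside counting error. The lowest site, position 77497509 of chromosome 10, was methylated in 65 of 128 reads, and position 77536498 in 136 of 145. No site of this window had a summed level below that of position 77497509.

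The 3 deep sites of the Dnmt1 window did not belong to a Dnmt1 promoter. By spacing (3 of 3 with neighbouring genes over 174891 bp, at 1 place of the chromosome) position 20703041 of chromosome 9 lay 9 bp before the start of Eif3g, which encodes a subunit of a translation initiation factor. It was at 0 to 0.07%, position 20702784 at 0 to 0.07% and position 20702450 at 0 to 0.35% over the 11 adenomas. The window's other 4 sites were shallow and held 286 methylated of 340 reads (84.1%, 79.8 to 87.8), and among them position 20755999 had 2 of 29. The methylation of the Dnmt1 promoter itself was therefore not measured. How far these 4 shallow sites lie from a Dnmt1 start was not determined.

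Uhrf1, the partner of Dnmt1, had 5 deep sites. Positions 56443621 and 56443735 of chromosome 17 lay 118 and 4 bp before the start. The first had 0 methylated of 3846 reads (up to 0.078%), and the second was at 0% in 10 adenomas and at 2.39% in TdgN151A/+ adenoma 1, where it had 43 reads. All 5 deep sites together had 2 methylated of 3724 reads in TdgN151A/+ adenomas, so this value rests on at most 2 methylated reads. Position 56443150, 589 bp before this matched start, was at 0 to 0.29%. Uhrf1 has another promoter, without CCCGGG, that ends at 56303336 in GRCm38.p6, while the matched one ends at 56304312. By the spacing of these promoters, position 56443150 lay past the other start. The other 2 deep sites, positions 56465474 and 56465634, lay 21735 and 21895 bp past the matched start. The gene extends 19173 bp from that start, so these 2 sites fall outside Uhrf1. They were at 0 to 0.43% and 0 to 0.38%.

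The genotype comparisons asked whether any of these loci changes its own methylation when Tet1 is absent or Tdg is mutated on 1 allele. Of the 34 deep sites, 27 had reads of both states and were tested, together with 21016 sites over all autosomes. In Tet1-/- against control adenomas, 0 of the 27 passed (edgeR quasi-likelihood test, Benjamini-Hochberg adjusted p under 0.05), while 1.35% of all tested sites did. In the table as a whole, 280 sites rose and 3 fell. In TdgN151A/+ against control adenomas, 0 of the 27 passed and 0.0% of all sites, and in double mutant against control 0 of the 27 and 0.0% of all. At an unadjusted p under 0.05 there were 1, 0 and 3 of the 27 sites in the 3 comparisons, against 8.05%, 3.01% and 3.72% of all tested sites. Limma on log2 ratios also called 0 of the 27 in each comparison. The comparisons share the control adenomas.

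The sites that came closest were in the lowest range of level. Tet3 position 83391811 had the smallest p against control in Tet1-/- adenomas (edgeR adjusted p = 0.303), with 3 of 3 values above all controls. It was also among the 3 of the double mutant comparison, with Dnmt3b position 153475769 and Tet1 position 62349949 (edgeR adjusted p = 0.904 at each, 2 of 2 values above all controls). Each of these levels was at most 0.3%. In Tet1-/- adenomas the Tet3 site had 2, 2 and 2 methylated reads of 1072, 1304 and 620, against 0 of 3126 in control. In double mutant adenomas 1 and 2 this site had 2 and 1 methylated reads. The Dnmt3b site had 3 and 2 in these adenomas, and the Tet1 site 2 and 2. The standard taken as unmethylated read 1.29, 0.827 and 0.147% in Tet1-/- adenomas 1, 2 and 3. The 0.3% of adenoma 3 at Tet3 position 83391811 lay above the standard of its own library. The values of the other 2 lay below theirs. In double mutant adenomas 1 and 2 the standard read 1.66 and 0.833%, above the values at these 3 sites. The standard is given as a share of reads, not as an adjusted level. Other sites read far below it, such as position 20702784 with 0 methylated of 2696 reads in double mutant adenoma 1. A value below the standard therefore does not tell whether it is background. Counted by position alone, 1 of 34 sites in Tet1-/-, 0 in TdgN151A/+ and 4 in double mutant adenomas had all values above all control values, against 8.84%, 5.06% and 10.7% of all deep sites. The fourth of these in double mutant adenomas was Dnmt3a position 3819797. All values lay below all control values at 0 of 34 sites in each comparison, against 1.06%, 1.59% and 2.32% of all deep sites. This could not occur at a site with a control value of 0, such as every deep site of the Tet1, Dnmt1, Dnmt3b and Uhrf1 windows. The 0 of 34 therefore says little about these loci, and the shares of all deep sites are not a like comparison.

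At the sites with a level of 1% or more, differences between means were up to 18.6 percentage points and none passed. At Dnmt3a position 3819797 the mean exceeded control by 11.3 points in Tet1-/-, 13.6 in TdgN151A/+ and 18.6 in double mutant adenomas. The log2 change of the methylated-to-unmethylated ratio was 0.69, 0.83 and 1.16, with edgeR adjusted p = 0.761, 1.0 and 0.904. At Tet3 position 83390256 the log2 changes were 0.34, 0.61 and 0.64 (edgeR adjusted p = 0.941, 1.0 and 0.904). These p-values do not show that the genotypes are alike: the SD within a genotype reached 21.3 points at Dnmt3a position 3819995. Averaged over the deep sites of a window, Tet3 stood at 7.23% ± 2.44 in control, 8.63% ± 2.66 in Tet1-/-, 9.79% ± 2.02 in TdgN151A/+ and 9.34% ± 1.90 in double mutant adenomas, and Dnmt3a at 5.60% ± 0.23, 6.74% ± 1.27, 6.77% ± 0.159 and 7.55% ± 2.19 (SD, n = 3, 3, 3 and 2). Most of the Dnmt3a mean came from positions 3819797 and 3819995. With reads summed over the window instead, Dnmt3a stood at 3.70, 3.95, 3.62 and 4.16%, with TdgN151A/+ then below control. The window means of Tet1, Dnmt1, Dnmt3b and Uhrf1 were at most 0.185% in every genotype.

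Read depth in the Tet1 and Tdg windows was compared to see whether any CCCGGG site is missing in an edited allele. At Tet1 position 62349949 control adenomas had 1464, 1319 and 1015 reads, Tet1-/- 1387, 1747 and 663, TdgN151A/+ 1538, 1596 and 1358, and double mutant 1560 and 1511. In RPM, the usual scaling of reads to the total of an adenoma, here its autosomal reads, this was 83.6 ± 5.16, 87.0 ± 7.28, 86.6 ± 2.79 and 89.1 ± 4.12 (SD). At position 62349597 it was 82.5 ± 5.24, 85.9 ± 7.59, 86.2 ± 2.50 and 88.1 ± 4.67. The genotypes overlap, and the log2 change of depth against control was 0.07 at both sites in Tet1-/-, 0.06 and 0.05 in TdgN151A/+ and 0.10 and 0.09 in double mutant adenomas (edgeR adjusted p = 1.0, 0.802 and 0.814, and 0.983 at both). Tet1-/- adenomas thus held reads from both sites.

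Among the 9 shallow Tet1 sites, each had 5 to 23 reads summed over the Tet1-/- adenomas, and 94 reads fell on them in all, against 96 in control, 113 in TdgN151A/+ and 80 in double mutant adenomas. In RPM the sum in Tet1-/- was 1.03 times that in control (exact 95% interval 0.769 to 1.39), in TdgN151A/+ 1.03 times (0.776 to 1.36) and in double mutant 1.10 times (0.804 to 1.49). Single shallow sites gave ratios of 0.527 to 2.46 in Tet1-/- adenomas, and all 9 intervals included 1. Position 62327149 in TdgN151A/+ (0.393, 0.157 to 0.902) and position 62306566 in double mutant adenomas (2.85, 1.01 to 9.14) had intervals without 1, with no adjustment for the number of sites. Every CCCGGG site of the Tet1 window had reads when those of the Tet1-/- adenomas were summed. Single adenomas had 0 reads at some shallow sites, namely positions 62274951 and 62327149 in Tet1-/- adenoma 2 and position 62291465 in Tet1-/- adenoma 3. Control adenomas 1 and 3 had 0 reads at positions 62269421 and 62291465, respectively. Depth at these sites does not check the label, because the labels do not say which part of Tet1 was removed. Position 82065330, in the Tdg window but not placed in the gene, had 19, 15, 19 and 12 reads in control, Tet1-/-, TdgN151A/+ and double mutant adenomas. Against control the ratio of RPM was 0.833 (0.394 to 1.73) in Tet1-/-, 0.873 (0.437 to 1.74) in TdgN151A/+ and 0.831 (0.368 to 1.80) in double mutant adenomas. N151A is a point mutation, so no change of depth would mark it.

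Over all 9 windows, 0 of 40 sites with a mean of at least 20 reads changed in depth in any of the 3 comparisons (edgeR, adjusted p under 0.05), against 0.0% of 32151 sites in Tet1-/-, 0.00311% in TdgN151A/+ and 0.00311% in double mutant adenomas. At an unadjusted p under 0.05 there were 0 of 40 in each, against 1.51%, 1.58% and 0.79% of all sites. DESeq2 called 0 of the 40 as well.

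**Figure D3:**
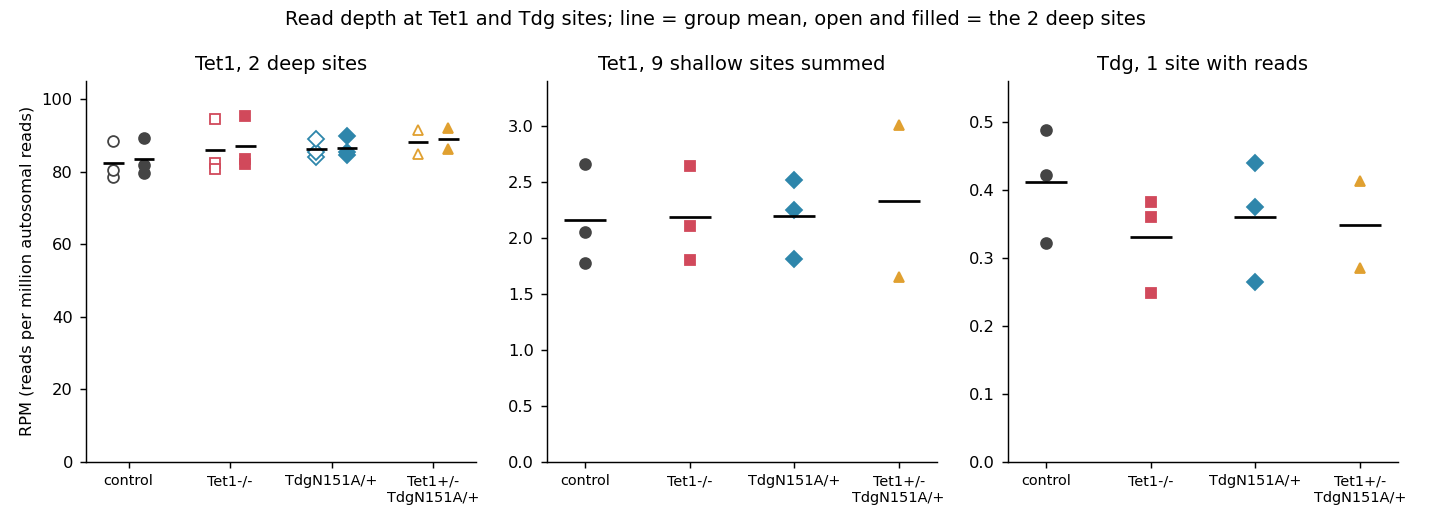
RPM of autosomal reads in each of 11 adenomas by genotype, with a line at each group mean. Panels show the 2 deep Tet1 sites (open symbols for position 62349597, filled for 62349949) and the 9 shallow Tet1 sites summed. The last panel shows the 1 site with reads in the Tdg window. The genotypes overlap in each panel, with group means of 82.5 to 89.1 RPM at the deep Tet1 sites.

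How deeply a site was read went with its distance to the next CCCGGG. Of the sites with the nearest neighbour more than 50 and up to 600 bp away, 29 of 31 were deep, against 54.0% of all autosomal sites at that spacing. With the nearest neighbour over 600 bp away, 0 of 57 were deep (1.65% of all autosomal sites), and with one at up to 50 bp, 5 of 16 (13.7%). The 2 deep Tet1 sites, 352 bp apart, had a read ratio of 0.982 to 0.998 in the 11 adenomas, while positions 20702450 and 20702784 of the Dnmt1 window, 334 bp apart, had one of 0.397 to 0.474. The spacing classes were set after the depths were seen. Shallow sites with reads and with no neighbour within 600 bp were methylated in 3270 of 4300 reads (76.0%), with over 50% at 42 of 53 sites, against 72.8% of such sites over all autosomes. The 10 shallow sites with a closer neighbour had 0 methylated of 788 reads, while over all autosomes shallow sites were methylated in 25.3% of reads with a neighbour at up to 50 bp and in 30.4% with one at more than 50 and up to 600 bp. The levels above 50% in every window but that of Dnmt3a thus came from isolated sites with few reads. In the Dnmt3a window the deep position 3819797 also had a mean level above 50%.

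**Figure D4:**
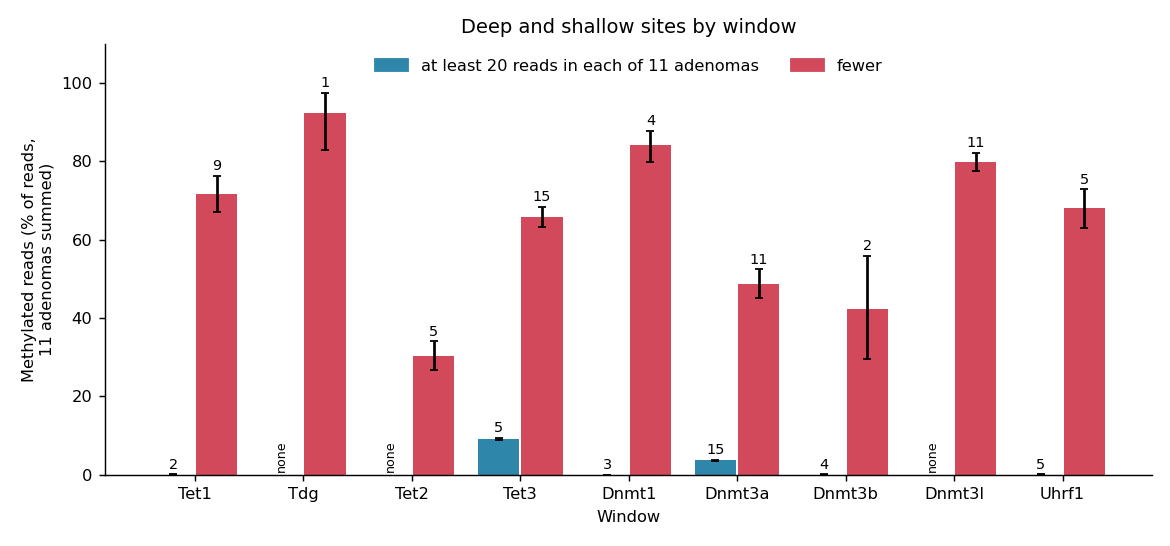
Share of methylated reads (%, 11 adenomas summed) at deep sites (blue) and at sites with fewer reads (red) in each window, with 95% Clopper-Pearson intervals as bars and the number of sites with reads above each. Deep sites reach 9.18% in Tet3 and 3.75% in Dnmt3a and lie near 0 elsewhere, while the shallow sites range from 30.3% in Tet2 to 92.3% in Tdg.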

How the data were processed

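Genomic DNA from 12 adenomas, with methylation standards added, was cut by SmaI and then XmaI, per the labels' protocols. Per the submitters' processing notes, Trim Galore and Bowtie2 were used on the reads with mm9 as the genome, with versions not given in the sources used here. A rat build named in the protocol text is at odds with the mm9 of the file headers. Each deposited table gives methylated and unmethylated read counts per CCCGGG site, per the file headers, as well as percent levels, raw and adjusted by the authors with the standards. The labels state a minimum of 100 reads, and shallower sites are also listed.

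The genes, windows and tests were chosen with earlier results of these data known. Groups follow the genotype labels. Sites needed 20 reads in each of 11 adenomas. Methylated and unmethylated counts of 21016 autosomal sites entered edgeR 4.0.16 under R 4.3.3 (quasi-likelihood, 1 depth coefficient per adenoma, 1 methylation coefficient per genotype, dispersion without a trend), and total reads of 32151 sites with a mean of at least 20 with edgeR after TMM scaling. All tests were two-sided and adjusted by Benjamini-Hochberg over all sites, with a threshold of 0.05. Alternatives used limma 3.58.1 with 2 reads added, DESeq2 1.42.0, other depth minimums, all 12 adenomas, sex, a replicate block and each adenoma left out. Scripts were tested on simulated data. Named sites were every called site and, per window, those with the highest and lowest mean level and the largest range, and every deep Tet1 site. Others were named after their values were seen. Adenomas had 2349576 to 18865833 reads in total and a median of 111 to 1069 reads at the deep sites of these loci. By reads on the Y chromosome 5 adenomas were female, and the double mutant adenomas were all male. No duplicated library was seen within a genotype, since 22.0 to 45.9% of the compared sites differed between adenomas of 1 genotype (chi-square p under 0.05). Only sites with enough reads of both states were compared, 3050 to 4242 per pair. Adenomas of different genotypes were not compared in this way. Figures were drawn with matplotlib 3.10.9.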

Additional observations from a re-analysis of the deposited data

How the results depend on the processing

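Under each alternative run, 0 of the tested sites at these loci were called in any of the 3 methylation or 3 depth comparisons, and the lowest edgeR, limma or DESeq2 adjusted p of a site over the alternatives was 0.227 for methylation in Tet1-/- against control. The counts over the whole table moved. For methylation in Tet1-/- against control they ran from 120 to 286 with 1 adenoma left out, against 283. The count was 120 without control 3, 141 without control 2 and also without Tet1-/- 3, 170 without Tet1-/- 2 and 184 without control 1. In TdgN151A/+ against control, 0 became 5 with all 12 adenomas, 4 with the 2 compared genotypes alone and 0 to 7 with 1 adenoma left out. In double mutant against control, 0 became 1 with all 12 adenomas and 0 to 3 with 1 adenoma left out. For depth, counts in Tet1-/-, TdgN151A/+ and double mutant adenomas were 98, 112 and 89 with no filter, 4 and 6 in the last 2 with DESeq2, 0 and 0 in the last 2 with a mean of at least 100 reads, and 0 to 8, 1 to 9 and 1 to 22 with 1 adenoma left out. The replicate block gave 202, 3 and 1 methylation calls and 19, 48 and 4 depth calls. Samples sharing a number had correlations of -0.269 to 0.228, over 0.1 in 4 of 15 pairs, so the numbers were not taken as a pairing.

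The mean over the Dnmt3a window moved to 8.36, 10.1, 10.1 and 11.3% in control, Tet1-/-, TdgN151A/+ and double mutant adenomas with 100 reads per site, and to 3.70, 3.95, 3.62 and 4.16% with reads summed. The Dnmt3b mean in double mutant adenomas moved to 0.0817 and 0.112%. Among single sites that were not called, the sign turned when 1 adenoma was left out. For Tet1-/- against control the log2 change of the ratio ranged from -0.0234 to 0.375 at Tet3 83389847, from -0.0172 to 0.561 at 83390256 (both negative without control 1) and from -0.178 to 1.16 at 83390694 (negative at -0.155 without control 1 and at -0.178 without Tet1-/- 3). At 83390694 in double mutant adenomas it ranged from -0.388 without control 1 to 0.59, and was -0.0218 without double mutant 1. At Dnmt3a 3808804 it ranged from -0.0227 without Tet1-/- 3 to 0.439 in Tet1-/-, and from -0.162 without TdgN151A/+ 3 to 0.202 in TdgN151A/+ adenomas, with -0.125 without control 1. At Dnmt3a 3819995 it ranged from -0.475 without double mutant 1 to 1.60 in double mutant adenomas. The log2 change of depth in Tet1-/- ranged from -0.0105 to 0.123 and from -0.0076 to 0.122 at the 2 deep Tet1 sites, negative without Tet1-/- 2. The cause was not tested. Leaving out 1 of 2 double mutant adenomas assumes that the other varies like the other genotypes.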
